A study of Rattus norvegicus with 3 samples.

Results

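Wnt signalling was followed in tendon stem/progenitor cells (TSPCs) by 10 genes: the ligand genes *Wnt4* and *Wnt5a*, the receptor genes *Fzd1* and *Fzd2*, the genes of the secreted antagonists *Sfrp1*, *Sfrp2*, *Sfrp4*, *Frzb* and *Dkk3*, and *Axin2*. The last encodes a protein inside the cell and is neither a ligand, a receptor nor a secreted antagonist. The genes were chosen by name, with earlier results of these arrays in view, so their values are a description and support no test. A probe set (a group of short probes for a transcript) was taken when the platform's table gave it one of these names as its single gene. All 10 genes were found, with 18 probe sets out of 31042, and 14216 named genes were measured in all.

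Wnt proteins are secreted, lipid-modified signals that bind Frizzled receptors, often together with the co-receptors Lrp5 or Lrp6. In the canonical branch, binding stops the destruction complex, in which Axin proteins are the scaffold, from degrading beta-catenin, which then enters the nucleus and acts with TCF/LEF factors on target genes. Other branches act through planar polarity or calcium. Secreted antagonists hold the signal back outside the cell: the Sfrp proteins and Frzb resemble the Wnt-binding part of Frizzled, and Dkk proteins mostly bind the co-receptors. In mesenchymal cells the pathway is known for its part in the choice between bone, cartilage and fat lineages.

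The samples were TSPCs-1d, TSPCs-7d and TSPCs-56d (1-day, 7-day and 56-day cells), cultured in the same serum-containing medium from the Achilles tendon of Sprague-Dawley rats aged 1, 7 and 56 days and used at passage 2. For each age, tissue of at least 2 animals was mixed, cells that grew out were seeded at very low density, and the colonies that formed were passaged, so the cultures were polyclonal. Total RNA was hybridized to 1 Affymetrix Rat Genome 230 2.0 array per age. With 3 arrays and no replicate, no difference has an error between cultures, no p-value was computed, and the number of arrays limits the precision. Every level below is a signal on a linear intensity scale and is compared between arrays for the same probe set only. In such a mixed culture, fewer cells of a type and less RNA per cell cannot be told apart.

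As a guide to the noise of a probe set, 1714 genes with 2 well-lit probe sets were used. In 10% of them the log2 ratios of both probe sets differed by more than 0.39 for TSPCs-7d vs. TSPCs-1d, by 0.44 for TSPCs-56d vs. TSPCs-7d and by 0.53 for TSPCs-56d vs. TSPCs-1d. These values measure disagreement within arrays and not between cultures. A signal was called dim when it lay under the 25th percentile over the arrays, 48.9. The brightest probe set of a gene, by its mean over the arrays, is given first. With it, 9 of the 10 genes had no dim signal, and *Frzb* was dim on all arrays.

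The tendon label was set beside 8 tendon genes, of which all but *Mkx* were measured. *Scx*, the tendon transcription factor gene, had signals of 2255, 2578 and 2569 at 1, 7 and 56 days, and *Tnmd*, a marker of mature tendon cells, had 543, 351 and 158. The measured tendon genes had no common direction. In 56-day vs. 1-day cells 2 of 7 were more than 2-fold higher, *Thbs4* (76.5, 340 and 348) and *Tnc*, and 1 was more than 2-fold lower (*Tnmd*). Of all genes, 2.00% were higher and 1.77% lower in that comparison. *Fmod* was highest in TSPCs-7d (271, 774 and 408). Of the genes of other cell types, 1 of 6 leukocyte genes (*Ptprc*) and 2 of 4 endothelial genes (*Pecam1* and *Vwf*) were dim on all arrays. By their brightest probe sets the others were not, for instance *Aif1* (209, 188 and 267) and *Lyz2* (115, 138 and 198). The other *Aif1* probe set was dim on all arrays (9.35, 7.47 and 8.85). In either list, 0 genes passed 2-fold. The summed signal was 706, 693 and 872 for the leukocyte list and 215, 212 and 230.4 for the endothelial list. All 5 genes of cycling cells were more than 2-fold higher in 7-day than in 1-day cells and more than 2-fold lower in 56-day than in 7-day cells. The shares of all genes were 1.87% and 2.10%.

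*Wnt4*, a ligand gene, had the largest ratio between a pair of arrays among the 10. Its single probe set (1368641_at) had signals of 135 in 1-day, 95.7 in 7-day and 489 in 56-day cells. The array of the oldest culture thus stood apart from both others. The signal was 5.11-fold higher in 56-day than in 7-day cells and 3.63-fold higher than in 1-day cells, with log2 ratios of 2.35 and 1.86. Between the younger cultures, TSPCs-7d was lower than TSPCs-1d by a log2 ratio of -0.49. *Wnt5a*, a ligand best known for branches that do not need beta-catenin, varied little, with 109, 123 and 134 at 1, 7 and 56 days. Its log2 ratios were 0.17 for TSPCs-7d vs. TSPCs-1d and 0.12 for TSPCs-56d vs. TSPCs-7d, both within the probe set spread.

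**Figure D1:**
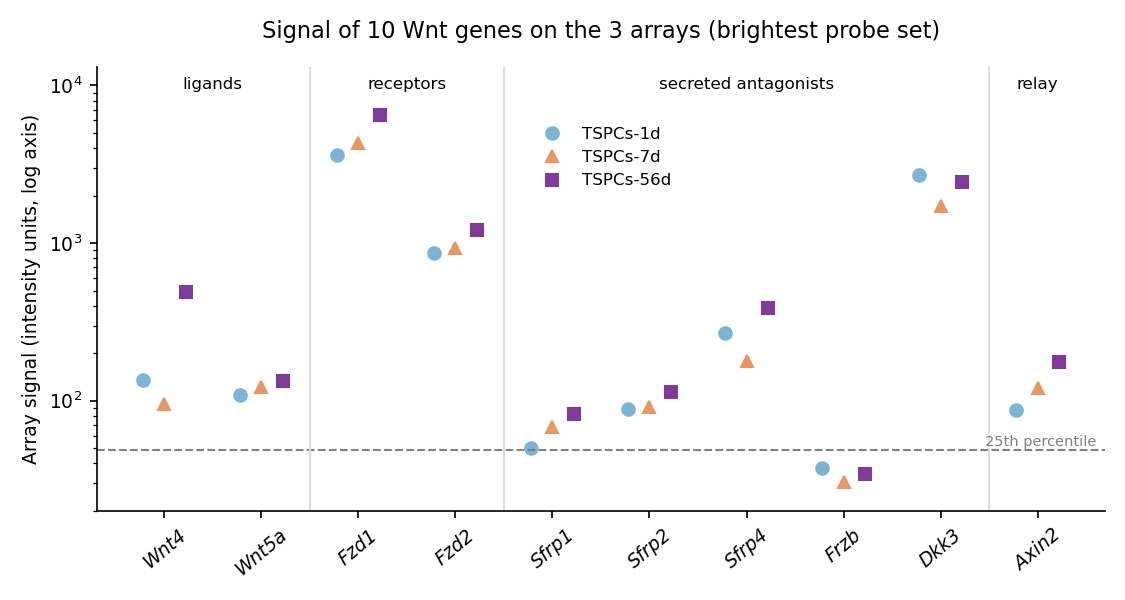
Array signal (intensity units, log axis) of the brightest probe set of each of the 10 genes at 1, 7 and 56 days, 1 point per array, with a dashed line at the 25th percentile of all signals. Wnt4 stands apart in TSPCs-56d (489), and all 3 Frzb points lie below the line.

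Both receptor genes were higher at each later age. *Fzd1*, which encodes a Frizzled receptor, had signals of 3594, 4309 and 6481 at 1, 7 and 56 days. The log2 ratio was 0.59 for TSPCs-56d vs. TSPCs-7d and 0.85 (1.80-fold) for TSPCs-56d vs. TSPCs-1d, both past the probe set spread, while that of TSPCs-7d vs. TSPCs-1d, 0.26, was within it. *Fzd2*, a second Frizzled gene, followed the same order with 859, 928 and 1216. Its log2 ratios were 0.39 for TSPCs-56d vs. TSPCs-7d and 0.50 for TSPCs-56d vs. TSPCs-1d, both just inside the probe set spread. Each of these genes has 1 probe set, so neither pattern could be set beside another.

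The 5 antagonist genes followed no common course. *Sfrp4*, a secreted Frizzled-related protein, had signals of 269 in 1-day, 179.8 in 7-day and 386 in 56-day cells, so TSPCs-7d was the lowest array and TSPCs-56d the highest. It was 2.15-fold higher in 56-day than in 7-day cells and 1.43-fold higher than in 1-day cells, and TSPCs-7d was lower than TSPCs-1d by a log2 ratio of -0.58. The other *Sfrp4* probe set was dim on all arrays (33.1, 29.0 and 36.0), which leaves the pattern on a single probe set.

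*Dkk3*, a divergent member of the Dickkopf family whose link to Wnt signalling is less settled than that of its relatives, was also lowest in TSPCs-7d. Its brightest probe set (1370328_at) had 2682, 1713 and 2456 at 1, 7 and 56 days. The log2 ratio was -0.65 between 7-day and 1-day cells, 0.52 for TSPCs-56d vs. TSPCs-7d and -0.13 for TSPCs-56d vs. TSPCs-1d. The gene's 3 other probe sets did not share this dip: they gave 123, 133 and 176, then 127, 128 and 115, and 12.0, 18.9 and 17.6, the last dim on all arrays.

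*Sfrp1* and *Sfrp2*, both of the same secreted family, were faint. The brightest *Sfrp1* probe set had 50.1, 68.1 and 82.9 at 1, 7 and 56 days, a log2 ratio of 0.72 for TSPCs-56d vs. TSPCs-1d. The other probe sets gave 55.9, 69.2 and 56.7, and 55.9, 46.0 and 40.7, so the 3 probe sets of *Sfrp1* did not share a direction between the oldest and the youngest culture. *Sfrp2* had 88.8, 91.3 and 113.7, and its weaker probe set kept the same order with 44.3, 49.5 and 59.1. The log2 ratios of *Sfrp2* for TSPCs-56d vs. TSPCs-1d, 0.36 and 0.42, were within the probe set spread. *Frzb*, a Wnt-binding antagonist known from developing cartilage, had 37.5, 30.4 and 34.3 in one probe set and 34.8, 33.8 and 31.9 in the other, and no difference could be read from dim signals.

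**Figure D2:**
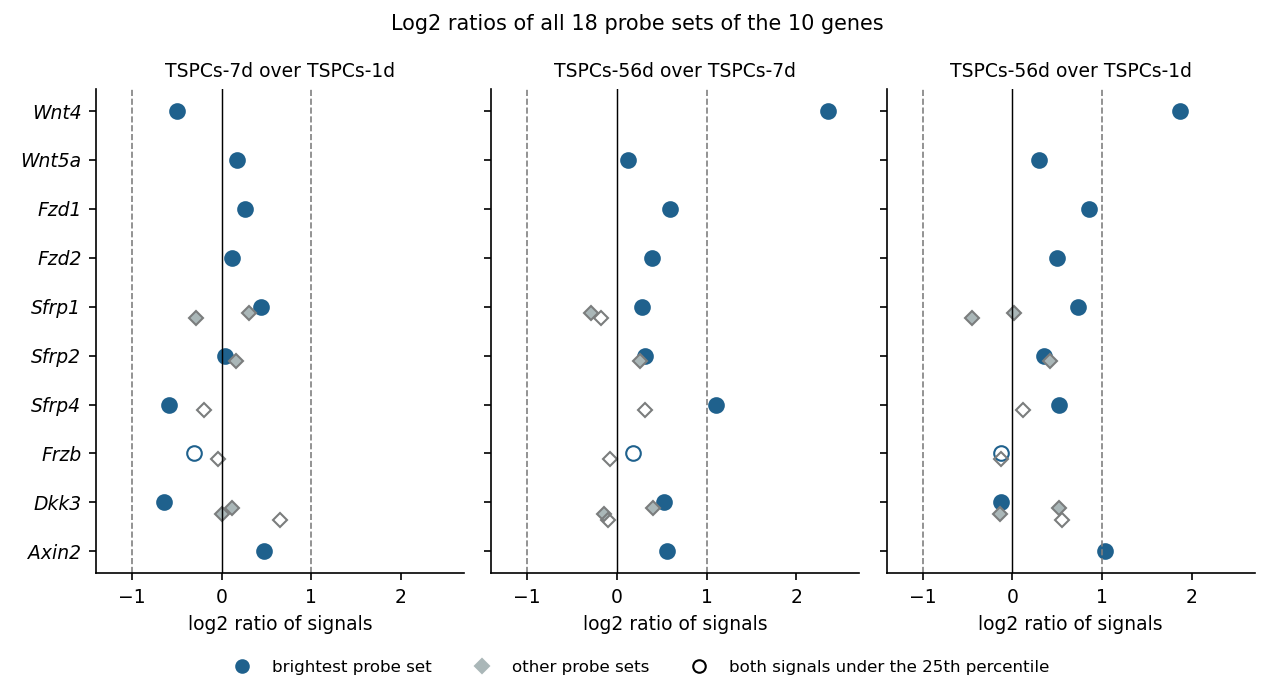
Log2 ratio of signals for all 18 probe sets of the 10 genes in the 3 comparisons of arrays, with large points for the brightest probe set of a gene, diamonds for the others, open symbols where both signals are dim, and dashed lines at 2-fold. Wnt4 (2.35) and Sfrp4 (1.10) pass 2-fold for TSPCs-56d over TSPCs-7d, and the probe sets of Sfrp1 and Dkk3 lie on both sides of 0.

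*Axin2* is a negative regulator that cells make in response to canonical Wnt signals, and it is widely read as a target gene of the pathway. Its single probe set had signals of 86.7 in 1-day, 120 in 7-day and 177 in 56-day cells, higher at each later age, with no other probe set to set beside it. The log2 ratios were 0.47 for TSPCs-7d vs. TSPCs-1d and 0.55 for TSPCs-56d vs. TSPCs-7d, each a little past the probe set spread. In TSPCs-56d *Axin2* was 2.04-fold higher than in 1-day cells, just over the cutoff of 2, and it fell under this cutoff when the arrays were rescaled (log2 ratios of 0.93 with each array divided by its median, 0.96 with quantile normalization and 0.92 with loess centring).

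The promoters of *Axin2* and *Wnt4* are shown because these genes differed most between the oldest and the youngest culture. RefSeq (build GRCr8) gave the 250 bases before and 50 after the annotated start for 6 of the 10 genes. *Sfrp1*, *Sfrp4*, *Dkk3* and *Fzd2* had no entry. The windows were searched on both strands for the TCF/LEF motif, read as AACAAAG or as ATCAAAG, and also as TACAAAG or as TTCAAAG, with matches in capitals. The *Axin2* window is chr10:94398535-94398834 (plus strand) and that of *Wnt4* is chr5:154797200-154797499 (plus strand).
Axin2: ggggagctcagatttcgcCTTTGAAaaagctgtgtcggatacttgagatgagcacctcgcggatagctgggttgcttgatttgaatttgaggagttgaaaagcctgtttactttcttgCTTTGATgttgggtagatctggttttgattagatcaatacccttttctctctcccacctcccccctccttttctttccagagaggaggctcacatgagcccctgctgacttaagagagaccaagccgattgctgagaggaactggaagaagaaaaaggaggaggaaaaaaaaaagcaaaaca
Wnt4: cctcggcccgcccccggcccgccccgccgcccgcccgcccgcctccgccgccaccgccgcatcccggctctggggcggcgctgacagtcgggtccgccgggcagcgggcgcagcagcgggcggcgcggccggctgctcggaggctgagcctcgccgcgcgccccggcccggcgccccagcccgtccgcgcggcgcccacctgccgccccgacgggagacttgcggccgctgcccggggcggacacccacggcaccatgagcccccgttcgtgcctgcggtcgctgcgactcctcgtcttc
The *Axin2* window holds 2 matches, both on the opposite strand, which begin 232 and 132 bases before the start. Over 33469 rat promoter windows of the same length, 17.1% held at least 1 match and 2.12% held 2 or more. No match was found in the windows of *Wnt4*, *Wnt5a*, *Sfrp2*, *Frzb* and *Fzd1*. The *Wnt4* window is rich in CG dinucleotides, with 53 against a median of 7 over all windows, and *Axin2* has 5. A match describes the letters only, and binding was not measured. The windows follow the annotated start, and the start used in these cells was not measured.

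Over the 10 genes, 0 were more than 2-fold higher (1.87% of all genes) and 0 more than 2-fold lower (1.08% of all genes) in TSPCs-7d vs. TSPCs-1d. Against TSPCs-7d, *Wnt4* and *Sfrp4* passed 2-fold as higher in 56-day cells (2 of 10, with 1.72% of all genes higher) and 0 were lower (2.10% of all genes). Against TSPCs-1d, *Wnt4* and *Axin2* passed 2-fold as higher in 56-day cells (2 of 10, with 2.00% of all genes higher) and 0 were lower (1.77% of all genes). Since the genes were chosen from these arrays, nothing is read from the counts beside these shares. Both comparisons of TSPCs-56d also share its array.

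The median log2 ratio of the 10 genes was 0.08 between 7-day and 1-day cells, 0.45 for TSPCs-56d vs. TSPCs-7d and 0.51 for TSPCs-56d vs. TSPCs-1d. Over all genes the medians were 0.01, 0.05 and 0.06. In 6 of the 10 genes the signal was higher at each later age, an order found in 24.1% of all genes. These were *Wnt5a*, *Fzd1*, *Fzd2*, *Sfrp2*, *Axin2* and, by its brightest probe set alone, *Sfrp1*. Among them only *Axin2* lay past the probe set spread both for TSPCs-7d vs. TSPCs-1d and for TSPCs-56d vs. TSPCs-7d. *Wnt4*, *Sfrp4* and, by its brightest probe set alone, *Dkk3* were lowest in TSPCs-7d instead. No order was read from the dim signals of *Frzb*. In 8 of the 10 genes, all but *Dkk3* and *Frzb*, TSPCs-56d was the highest array, beside 44.2% of all genes. For *Sfrp1* this again held by its brightest probe set alone. With each array divided by its median the members gave 6 and 8 again, beside 17.3% and 32.2% of all genes. With all probe sets of a gene averaged they gave 5 and 7. Since the genes were chosen from these arrays, nothing is read from these medians and orders beside those of all genes, under any scaling.

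Some genes of contractile cells had the order of *Wnt4* and *Sfrp4*, lowest in TSPCs-7d and highest in TSPCs-56d. The actin gene *Acta1* had 1772, 855 and 5327 at 1, 7 and 56 days, and the smooth muscle myosin gene *Myh11* had 2186, 1671 and 5067 in its brighter probe set and 109, 152 and 198 in the other. *Cnn1* (5581, 4226 and 6204) and *Acta2* (9048, 7419 and 9316) had the order of *Wnt4*, with differences under 2-fold. The pericyte genes *Cspg4* (793, 659 and 622) and *Rgs5* (58.6, 36.6 and 41.2) were highest in TSPCs-1d. The 7-day and 56-day signals of *Rgs5* were dim, which leaves a difference from 1-day cells of at least 1.20-fold. Of 5 smooth muscle and pericyte genes, 1 was more than 2-fold higher in 56-day than in 7-day cells and 0 were lower. The shares of all genes were 1.72% and 2.10%. The summed signal of these 5 genes was 17667, 14012 and 21251. Of 5 measured skeletal muscle genes, only *Acta1* was past 2-fold, and the myogenic factor gene *Myod1* was dim on all arrays. The summed signal of the 5 cycling genes was 3073, 7529 and 2933, highest where *Wnt4*, *Sfrp4* and the brightest *Dkk3* probe set were lowest. The part of these cells and states in the Wnt values was not tested.

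By the Euclidean distance of the 3 log2 ratios, among 9382 genes above the median of mean signal, the patterns most like that of *Wnt4* were those of the chemokine gene *Ccl20* (274, 195 and 948 at 1, 7 and 56 days, distance 0.10) and *Cercam* (152, 122 and 554, distance 0.24). For *Sfrp4* they were *Apc2*, which encodes a relative of the destruction complex protein Apc (427, 284 and 610, distance 0.01, in a probe set whose name marks probes that can match other transcripts), and the steroid sulfatase gene *Sts* (distance 0.07). For *Axin2* they were *Srpx* (2889, 3919 and 5739, distance 0.05) and the tenascin gene *Tnc* (5280, 7302 and 11185, distance 0.08). With 3 arrays, many genes can share such a course.

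The wider pathway was taken as 8 lists by role, which also hold the 10 genes. Of their 111 other genes, 90 were measured. In 7-day against 1-day cells, 2 of the 90 were more than 2-fold higher and 0 lower, beside 1.87% and 1.08% of all genes. In 56-day against 7-day cells, 1 was higher and 3 were lower, beside 1.72% and 2.10%. In 56-day against 1-day cells, 3 were higher and 2 lower, beside 2.00% and 1.77%, and nothing is read from these small counts. These counts are of the deposited ratios and include *Lgr5*, *Wnt16* and *Rspo3*, whose signals were dim on at least 1 array of the pair. Over the 90 genes the median log2 ratios were -0.03, 0.06 and 0.03, near those of all genes. By list, with the 10 genes included, the median for TSPCs-56d vs. TSPCs-7d was 0.11 over 13 ligand genes and 0.03 over 11 receptor genes. It was 0.28 over 13 antagonist genes and 0.18 over 20 genes of the planar polarity and calcium branch. In that branch 0 passed 2-fold in this comparison, beside 1.72% of all genes higher and 2.10% lower. With median scaling of the arrays, the split of the 90 was 0 higher and 3 lower for TSPCs-56d vs. TSPCs-7d. It was 3 higher and 4 lower for TSPCs-56d vs. TSPCs-1d. With this scaling 3.94% and 3.77% of all genes passed 2-fold in either direction in these comparisons.

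Among 13 measured ligand genes, *Wnt4* alone was more than 2-fold higher in 56-day cells than in either younger culture. Of all genes, 1.72% were higher than in 7-day cells and 2.00% higher than in 1-day cells. *Wnt16*, named after its values were seen, was counted as lower in 56-day than in 1-day cells, but all its signals were dim (47.9, 40.1 and 22.1). *Porcn*, the enzyme that adds the lipid to Wnt proteins, had 537, 413 and 785 at 1, 7 and 56 days, the order of *Wnt4*, and its weaker probe set followed (120.0, 117 and 155). *Wls*, which carries Wnt proteins to the cell surface, had 3122, 2193 and 2688.

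Of 11 measured receptor genes, 0 passed 2-fold in any comparison. The share of all genes past 2-fold in either direction was 2.95% for TSPCs-7d vs. TSPCs-1d. It was 3.81% for TSPCs-56d vs. TSPCs-7d and 3.76% for TSPCs-56d vs. TSPCs-1d, so nothing is read from this count. The co-receptor genes differed by less than 2-fold between ages, with 125, 109.9 and 97.9 for *Lrp5* and 682, 778 and 712 for *Lrp6*. Among the R-spondins, secreted proteins that strengthen Wnt signals, *Rspo3* was lower with age in its brighter probe set (116, 59.8 and 44.3) and level in the other (60.0, 60.4 and 58.9). With the dim signal raised to 48.9, *Rspo3* was at least 2.38-fold lower in 56-day than in 1-day cells by the brighter one.

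Of 13 measured genes in the antagonist list, 5 of them members, *Wif1*, a secreted inhibitor that binds Wnt proteins, had 80.5, 96.5 and 195.9 at 1, 7 and 56 days. It was 2.43-fold higher in 56-day than in 1-day cells and 2.03-fold higher than in 7-day cells. The second ratio fell under the cutoff after division by the array median, quantile normalization and loess centring. *Cthrc1* had 268, 674 and 148, a course opposite to that of *Sfrp4*, and was 2.52-fold higher in 7-day than in 1-day cells and 4.56-fold lower in 56-day than in 7-day cells. This secreted glycoprotein is known as a partner of Wnt and Frizzled proteins in the planar polarity branch rather than as a plain antagonist.

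**Figure D3:**
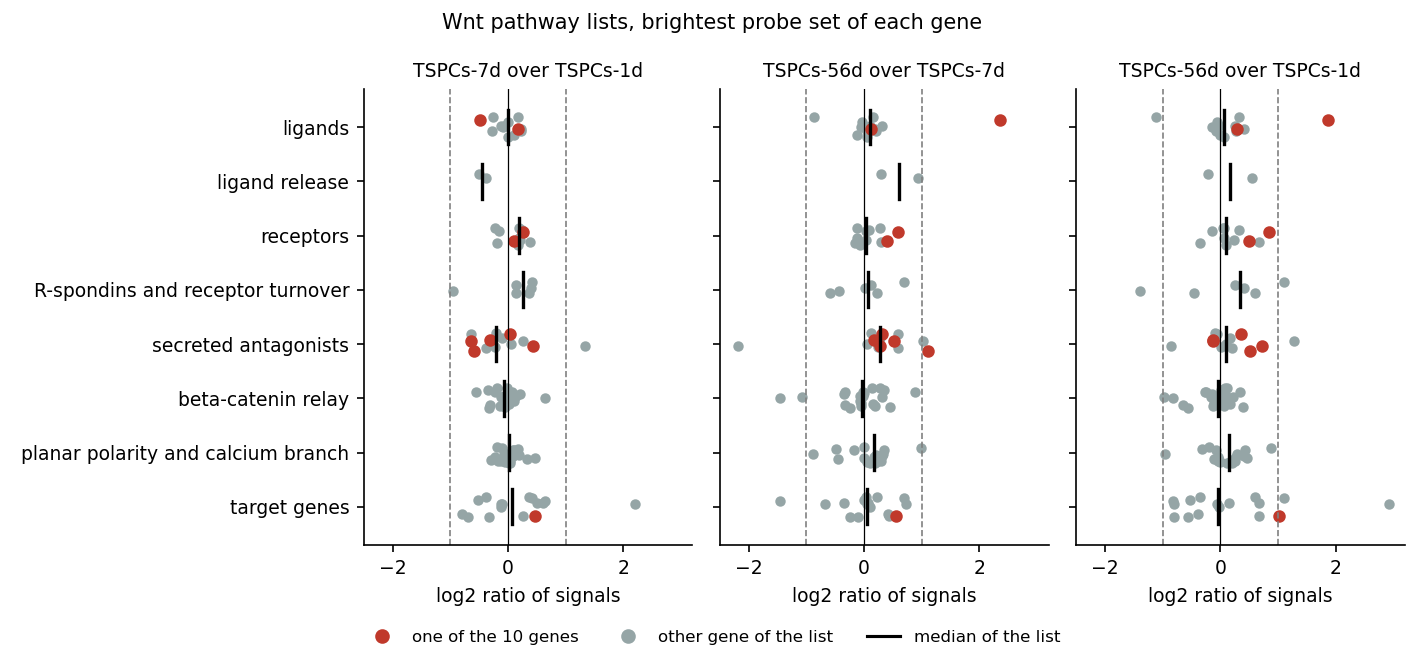
Log2 ratio of signals for each measured gene (1 point, brightest probe set) of 8 Wnt pathway lists in the 3 comparisons of arrays, with the 10 genes in red, other genes in grey, black bars for the list medians and dashed lines at 2-fold. Most genes lie between the dashed lines, with Wnt4 (2.35), Cthrc1 (-2.19) and Wisp2 (2.92) among those far outside.

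In the beta-catenin relay, *Ctnnb1*, which encodes beta-catenin, had 7621, 7300.1 and 7034 at 1, 7 and 56 days. Of the 23 measured genes of this list, 2 passed 2-fold, both lower in 56-day than in 7-day cells, where 2.10% of all genes were lower. *Lef1*, a nuclear partner of beta-catenin, had 175, 274 and 98.98, and its second probe set moved the same way (75.8, 112.8 and 50.7). It was 2.76-fold lower in 56-day than in 7-day cells by the first and 2.22-fold by the second. *Tle1*, a co-repressor of TCF/LEF factors, had 441, 474 and 224, 2.12-fold lower in 56-day than in 7-day cells. *Tcf7*, a relative of *Lef1*, had 125, 100.2 and 84.9.

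Target genes did not all move together with *Axin2*. *Axin2* and *Lef1*, both known targets, had log2 ratios of 1.03 and -0.82 for TSPCs-56d vs. TSPCs-1d. *Nkd1*, a feedback inhibitor, had 54.5, 83.3 and 87.3 at 1, 7 and 56 days, the order of *Axin2*, with 2 fainter probe sets lowest in TSPCs-7d. *Lgr5*, a receptor for R-spondins, had 24.1, 32.1 and 51.7, of which the first 2 were dim, so it was at least 1.06-fold higher in 56-day cells than in either younger culture. The cyclin gene *Ccnd1* was lower at each later age in its brightest probe set (3237, 2980 and 1854) and in both others. *Myc* was highest in TSPCs-7d with 600.0, 853 and 668. Named after their values were seen, *Znrf3* (90.2, 116 and 136) and *Tnfrsf19* (32.65, 38.9 and 52.3, the first 2 dim) had the order of *Axin2*. The targets *Nkd2*, *Apcdd1*, *Wisp1*, *Fosl1*, *Cd44* and *Jun* did not have it. *Wisp2*, a matricellular protein gene of the CCN family, had 450, 2060.3 and 3406, 4.58-fold higher in 7-day than in 1-day cells and 7.57-fold higher in 56-day than in 1-day cells. By the deposited ratios, 3 of the 16 measured target genes were counted past 2-fold as higher in TSPCs-56d vs. TSPCs-1d (*Axin2*, *Wisp2* and, against a dim signal that leaves only the bound above, *Lgr5*) and 0 as lower, beside 2.00% and 1.77% of all genes. The median log2 ratio was -0.04.

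**Figure D4:**
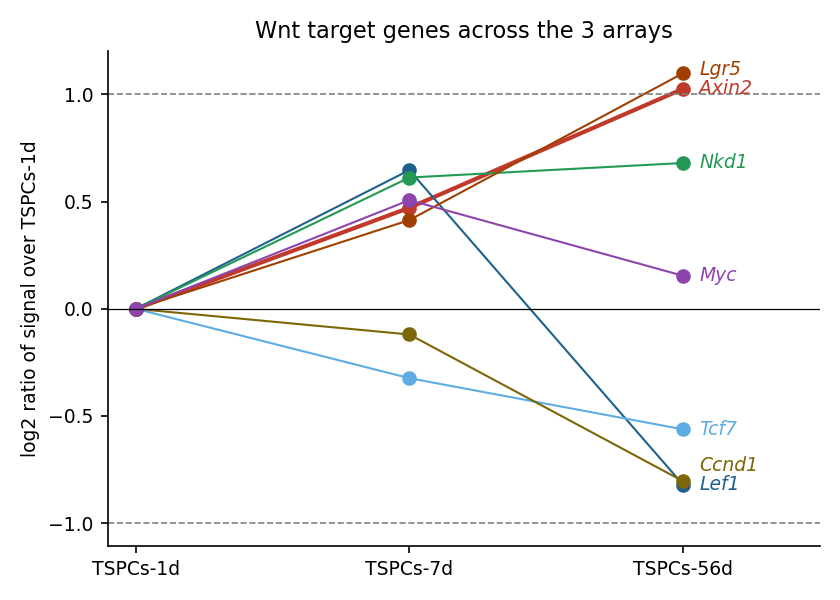
Log2 ratio of the signal over TSPCs-1d for 7 Wnt target genes (brightest probe set, 1 line per gene) at 1, 7 and 56 days, with dashed lines at 2-fold. Axin2 ends at 1.03 and Lgr5, dim in both younger cultures, at 1.10, while Lef1 (-0.82), Ccnd1 (-0.80) and Tcf7 (-0.56) end below 0.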

How the data were processed

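Each of 3 cultures was measured on 1 Affymetrix Rat Genome 230 2.0 array. The authors named both MAS5 and RMA for normalization and summary in the methods, whereas the submitters' processing notes name MAS5 alone, and which of them made the values is not given in the sources used here. The methods and the sample labels also differ in the amount of RNA and in the amplification kit. Deposited values are linear intensity, from 1 upward, for each of 31042 probe sets. Detection calls were not used here.

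The signals were used as deposited, with no floor, filter or scaling. Fold changes were ratios of 1 array's signal over another's, the later age over the earlier, with the cutoff of 2 that the methods name. With 1 array per age, no test was made. In the platform annotation, 20826 probe sets carried a single gene, 436 several and 9780 none. The gene IDs of all 10 genes carry the same symbols in RefSeq (GRCr8). A gene was represented by its brightest probe set (highest mean over arrays). The members and lists were chosen with earlier results of these data known. Named are the 10 genes, list genes past 2-fold whose brightest array was above the median of all signals (110.1), a fixed set of pathway genes, and the 2 nearest genes of each member past 2-fold. Median scaling and the 2-fold count were tried on a simulated pair of arrays, where all 200 planted 3-fold changes were recovered. With the low noise simulated this outcome was set in advance. The choice of probe set, the dim calls and the list counts were not tried. The alternatives were 3 scalings, floors at the 25th percentile (48.9) and at the median, a pseudocount of 32, the mean over probe sets, no shared probe sets, cutoffs of 1.5 and 3, and genes above the median of mean signal. Python 3.11.15, numpy 2.4.6, pandas 2.3.3, statsmodels 0.14.6 and matplotlib 3.10.9 were used.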

Additional observations from a re-analysis of the deposited data

How the results depend on the processing

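Of 240 recalculated log2 ratios of the 10 genes, 237 moved by no more than the probe set spread. The other 3 were all of *Sfrp1*, and 1 ratio changed sign: *Sfrp1* for TSPCs-56d vs. TSPCs-7d, -0.02 with the mean over its probe sets. Many of the 237 could not move. Leaving out shared probe sets changed no ratio of the 10 genes. The lower floor could not change the 9 genes whose brightest probe set had no dim signal. The mean over probe sets could not change the 5 genes with 1 probe set. The count of 237 is therefore not a measure of stability. The counts of genes past 2-fold stayed within 1.5 times in 45 of 66 recalculations. The 2 members higher in 56-day than in 1-day cells became 1 (*Wnt4*) with each of the 3 scalings, with the floor at the median, with a pseudocount of 32 and at a cutoff of 3, and 4 at a cutoff of 1.5. The 2 higher in 56-day than in 7-day cells became 1 (*Wnt4*) with the pseudocount and at a cutoff of 3. Between TSPCs-7d and TSPCs-1d, 1 member (*Dkk3*, lower) passed a cutoff of 1.5. The share of all genes past the cutoffs of 1.5 and 3 was not computed. The counts at these cutoffs therefore cannot show whether members passed more often than other genes. Nothing is read from the counts under the other settings either, since the members were chosen from these arrays.

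For the further pathway genes, the 5 past 2-fold in TSPCs-56d vs. TSPCs-1d became 3 with the floor at the 25th percentile, 1 with the floor at the median, 2 with the pseudocount, 2 above the median of mean signal, 17 at a cutoff of 1.5 and 1 at a cutoff of 3. The 4 in TSPCs-56d vs. TSPCs-7d became 2 with the pseudocount, 14 at a cutoff of 1.5 and 1 at a cutoff of 3, and the 2 in TSPCs-7d vs. TSPCs-1d became 8 and 1 at these cutoffs. The cutoffs and the floors change the counts by construction. With no share of all genes at the cutoffs of 1.5 and 3, the pathway counts there have no background to be read against. No paired analysis was possible because each age has 1 array. *Frzb* was dim on all arrays, and *Sfrp1* and *Sfrp2* each had a probe set that was dim on at least 1 array.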

Other observations

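A few pathway genes outside the rule for named genes were chosen after their values were seen. In the planar polarity branch, *Prickle1*, a cytoplasmic polarity protein gene, had signals of 511, 474 and 937 at 1, 7 and 56 days, 1.98-fold higher in 56-day than in 7-day cells, while its fainter probe set was lower at each later age (54.7, 45.1 and 38.5). *Vangl2*, which encodes a membrane protein of the same branch, had 67.5, 64.3 and 34.9, at least 1.38-fold lower in 56-day than in 1-day cells with the dim signal raised to 48.9, and its second probe set had 53.0, 47.3 and 40.7. Among the target genes, *Nkd2*, a relative of *Nkd1*, had 1506, 862 and 1151, lowest in TSPCs-7d as *Sfrp4* and the brightest *Dkk3* probe set were. *Fosl1*, an AP-1 factor gene, had 584, 361 and 334. All of these are values of single arrays.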
